A study of Mus musculus with 10 samples.

Results

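The genes described here encode the neuropeptide PACAP, its receptors and the subunits of protein kinase A, and they were followed in mouse granulosa cells with and without the progesterone receptor. They were chosen by name, as 10 genes of one signalling route: the ligand Adcyap1, the receptors Adcyap1r1, Vipr1 and Vipr2, the regulatory subunits Prkar1a, Prkar1b, Prkar2a and Prkar2b, and the catalytic subunits Prkaca and Prkacb. Of these, 9 were read by a probe set that carries 1 gene symbol, among 19938 genes measured that way in all. Prkaca, the gene of the main catalytic subunit, had no such probe set and is not analysed here. Vipr1 had 2 probe sets, of which the one with the higher mean was used, and the other 8 measured genes had 1 each.

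In PRKO mice both copies of Pgr, which encodes the progesterone receptor, were disrupted by an inserted lacZ gene, so that neither receptor isoform was made. The PR+/- controls had this insertion in 1 copy, so no group here was free of it. The mice, 21 to 23 days old, had their follicles grown with equine chorionic gonadotropin (5 IU) and were brought towards ovulation 44 to 47 h later with its human counterpart (hCG, 5 IU). Granulosa cells were released by follicle puncture 8 h after hCG, and cells of 3 animals were pooled for each array, which gave 5 PRKO and 5 PR+/- pools.

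In the ovulating follicle, luteinizing hormone, which hCG mimics, acts through a receptor that raises cyclic AMP in granulosa cells. PACAP is a peptide that raises cyclic AMP through its own G protein coupled receptors, which it shares in part with vasoactive intestinal peptide (VIP), and in rodent granulosa cells it is known as a gene switched on by the ovulatory surge with help from the progesterone receptor. Cyclic AMP binds the regulatory subunits of protein kinase A and frees the catalytic subunits, which then phosphorylate transcription factors such as CREB. The regulatory subunits are of type I or type II, and the type II subunits are the ones mainly tethered inside cells by A-kinase anchoring proteins.

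The values are log2 expression values per probe set as the authors deposited them. Array medians lay between 6.48 and 6.55, and pairwise correlations between arrays between 0.973 and 0.992. Pgr itself read 6.15 to 6.90 in PRKO pools and 6.07 to 7.70 in PR+/- pools (log2 difference -0.46, limma adjusted p = 0.527); where its probe set lies relative to the insertion is not known here, so it checks no label. Background was judged from 1015 olfactory receptor genes, whose 95th percentile was 5.87, and only Vipr2 of the 9 genes had a mean under that level. All 10 measured granulosa cell markers of 12 listed lay above it, with list means of 10.8 to 11.4 in PRKO pools and 10.8 to 11.1 in PR+/- pools. Markers of other cells were read too: all 9 oocyte markers lay above background, with list means of 7.96 to 8.81 in PRKO pools and 8.06 to 8.68 in PR+/- pools, as did 4 of 5 theca, 5 of 6 endothelial and 3 of 4 smooth muscle markers. Over the 8 marker lists none of 47 measured genes differed at a limma adjusted p under 0.05. At an unadjusted p under 0.05 there were 11 in limma and 5 by exact permutation, against 13.0% and 12.7% of all genes. Of these, 7 of the 11 and all 5 were among the 10 granulosa cell markers. In such bulk pools fewer cells of a type and less RNA per cell cannot be told apart.

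None of the 9 genes differed between PRKO and PR+/- pools at a limma adjusted p under 0.05 over all 19938 genes, where 491 genes, or 2.46%, did. Without adjustment, 3 of the 9 had a limma p under 0.05, against 13.0% of all genes, and 3 of the 9 had an exact permutation p under 0.05, against 12.7% of all genes. The genotypes did not overlap in 2 of the 9, Prkar2b and Prkar2a, against 4.42% of all genes. These were the type II regulatory subunits, with log2 differences of opposite sign, PRKO minus PR+/-, of 0.48 for Prkar2b and -0.33 for Prkar2a. The median log2 difference of the 9 genes was -0.03, beside -0.02 over all genes.

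**Figure D1:**
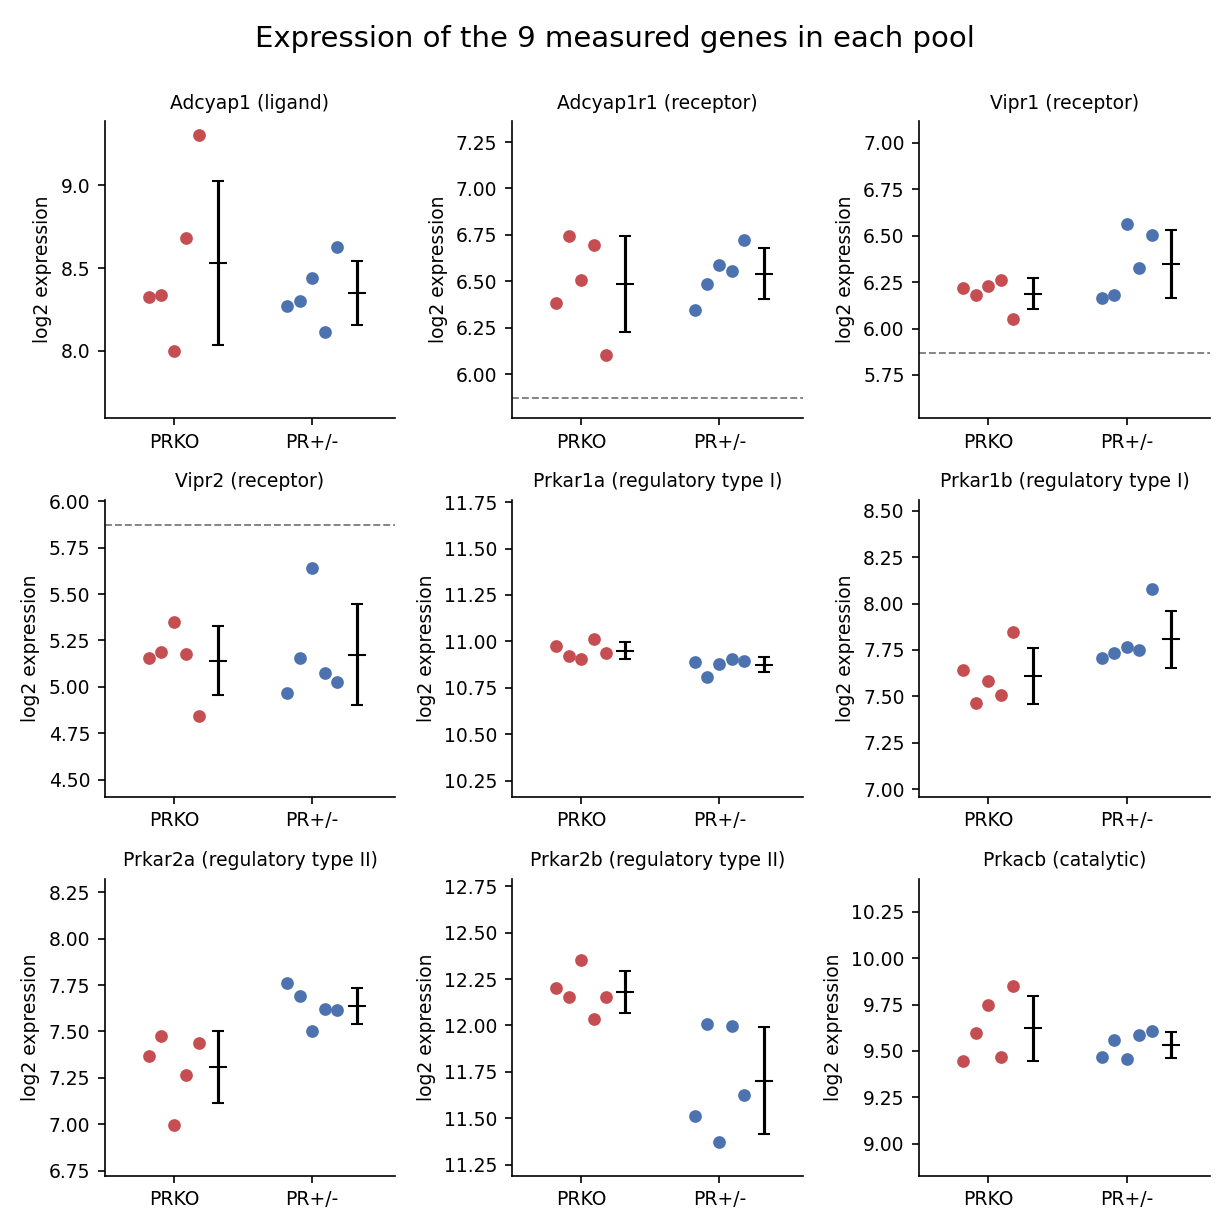
Log2 expression of the 9 measured genes in each pool, with PRKO pools in red and PR+/- pools in blue (points), and the mean with its SD in black (n = 5 pools each). The dashed line is the background level of 5.87, shown where it falls within the panel, and the 2 genotypes are apart only in Prkar2a and Prkar2b.

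Adcyap1, which encodes the PACAP precursor, was expressed at a similar level in most pools of both genotypes. Its log2 values were 8.33, 8.34, 8.00, 8.68 and 9.31 in PRKO pools 1 to 5, and 8.27, 8.30, 8.44, 8.11 and 8.63 in PR+/- pools 1 to 5. PRKO pool 5 held the highest value of all 10 and PRKO pool 3 the lowest, so the controls lay inside the range of the PRKO pools. The means were 8.53 ± 0.50 in PRKO and 8.35 ± 0.19 in PR+/- (SD, n = 5 pools each), which is 0.18 on the log2 scale (limma SE 0.19, 95% interval -0.23 to 0.59, adjusted p = 0.752). The lower end of that interval is a level 1.17-fold lower in PRKO. Without PRKO pool 5 the log2 difference was -0.01.

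Adcyap1 was also the most variable of the 9 genes within a genotype. Its SD within genotypes was 0.38, larger than that of 98.7% of all genes. The genes whose pattern over the 10 pools was most like that of Adcyap1, by Pearson correlation after the mean of each genotype was taken out and among 13202 genes above background, were Rny1 (r = 0.96), which encodes a small noncoding Y RNA, Vps29 (r = 0.95), part of the retromer sorting complex, and Srp14 (r = 0.95), part of the signal recognition particle. In each of these 3 genes PRKO pool 5 was again the highest of the 10 pools, at 7.46 for Rny1, 8.88 for Vps29 and 8.91 for Srp14, against at most 6.67, 8.61 and 8.29 in the other PRKO pools. PRKO pool 5 was also the PRKO array least correlated with the rest. These likenesses are a description of 10 pools in which 1 pool stands far out.

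The cyclic AMP response element, to which CREB binds, reads TGACGTCA, and its half-site TGACG. The promoter of Adcyap1 is shown because the element is a DNA site, though not the only kind, at which protein kinase A signalling reaches genes. The sequence is that of the RefSeq window (GRCm38.p6, 250 bases before to 50 after the downstream of its 2 annotated starts, sense strand) with half-sites on either strand and GC boxes (GGGCGG) in capitals.

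Adcyap1, chr17:93198918-93199217, plus strand: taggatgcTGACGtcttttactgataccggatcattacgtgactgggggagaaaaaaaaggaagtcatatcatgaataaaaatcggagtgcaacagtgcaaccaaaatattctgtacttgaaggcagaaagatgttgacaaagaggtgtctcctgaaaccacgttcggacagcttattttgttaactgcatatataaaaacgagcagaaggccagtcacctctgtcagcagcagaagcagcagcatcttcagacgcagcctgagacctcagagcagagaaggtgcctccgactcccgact

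It holds 1 half-site, starting at base -242 from the annotated start, and no full element. Over 32851 promoter windows of this length, 20.8% held a half-site, 1.79% the full element and 35.7% a GC box, on either strand. No match to the core of the progesterone receptor palindrome (ACANNNTGT), present in 6.85% of windows, was found in these 300 bases.

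The receptors were dimmer and did not separate the genotypes. Adcyap1r1, which encodes the PACAP-preferring receptor PAC1, read 6.38, 6.74, 6.51, 6.69 and 6.10 in PRKO pools 1 to 5, and 6.35, 6.48, 6.59, 6.56 and 6.72 in PR+/- pools 1 to 5. The lowest and the highest value both came from PRKO pools, and the control values lay between them. The log2 difference was -0.05 (SE 0.11, 95% interval -0.30 to 0.19, limma adjusted p = 0.895), and it changed sign to 0.04 without PRKO pool 5.

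Vipr1 encodes VPAC1, which binds PACAP and VIP alike. Its log2 values were 6.22, 6.18, 6.23, 6.26 and 6.05 in PRKO pools, and 6.16, 6.18, 6.56, 6.33 and 6.50 in PR+/- pools. All 5 PRKO pools lay under the control mean of 6.35, but PR+/- pools 1 and 2 were as low as the PRKO pools. The log2 difference was -0.16 (SE 0.09, 95% interval -0.35 to 0.03, limma adjusted p = 0.491). The second Vipr1 probe set, with a mean of 5.78, lay under the background level of 5.87. Its log2 difference of -0.01 cannot show whether the transcript level differed.

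Vipr2 encodes VPAC2, the other shared receptor, and lay under the background level in every pool. It read 4.84 to 5.35 with a median of 5.18 in PRKO pools, and 4.97 to 5.64 with a median of 5.07 in PR+/- pools. Its log2 difference as read was -0.03 (SE 0.13, limma adjusted p = 0.949; 0.02 after quantile normalization), which at this signal cannot show a difference in transcript level.

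**Figure D2:**
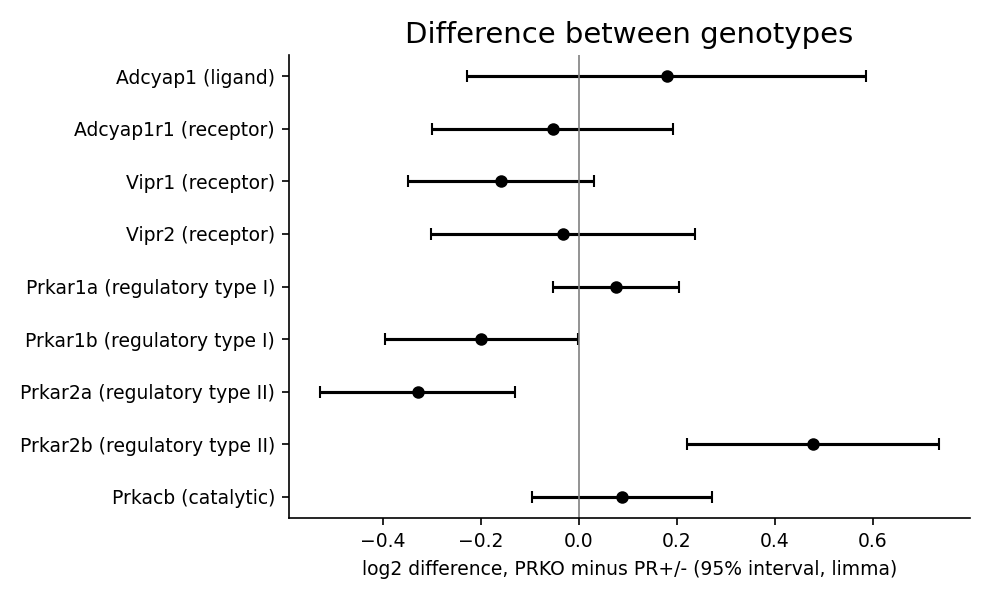
Log2 difference, PRKO minus PR+/-, of each of the 9 genes with the 95% interval from limma (n = 5 pools each). The intervals of Prkar2b, Prkar2a and Prkar1b lie on one side of 0, which does not take account of the number of genes tested.

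Prkar2b, which encodes the regulatory subunit RII-beta, was the gene of the 9 with the smallest p. RII-beta is known from rat granulosa cells as the subunit that follicle-stimulating hormone and cyclic AMP raise as follicles mature. The log2 values were 12.20, 12.15, 12.35, 12.04 and 12.16 in PRKO pools 1 to 5, and 11.51, 12.01, 11.37, 12.00 and 11.62 in PR+/- pools 1 to 5. Every PRKO pool lay above every control, but PR+/- pools 2 and 4 came close to the lowest PRKO pool, whereas the other 3 controls lay further down. The means were 12.18 ± 0.11 in PRKO and 11.70 ± 0.29 in PR+/- (SD, n = 5 pools each), a 1.39-fold higher reading (log2 difference 0.48, SE 0.12, 95% interval 0.22 to 0.73). The limma adjusted p was 0.0536, just over the threshold, and the exact permutation p of 0.0079 (two-sided, unadjusted) is the smallest that 5 against 5 pools can give.

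This result changed sides with the choice of pools. Adjusted p was 0.0219 without PR+/- pool 2 and 0.0295 without PR+/- pool 4, and between 0.0633 and 0.133 without any 1 of the other 8 pools. It was also under the threshold with dim genes left out (0.0417) and with an intensity trend in the prior (0.0349). These were 2 of 12 settings other than leaving out 1 pool, and the rest were over the threshold. Adjusted p was 0.0863 with array weights. In 2 settings added after seeing the data it was 0.122 with the olfactory receptor mean as a covariate, and 0.189 without the least correlated array of each genotype.

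Levels of granulosa cell markers followed those of Prkar2b in part. Of the 10 measured markers, 9 had a positive log2 difference and none passed the test in limma. At an unadjusted limma p under 0.05 there were 7 of the 10, 6 of them higher in PRKO, against 13.0% of all genes. By exact permutation, unadjusted, there were 5 of the 10, against 12.7% of all genes. The 1 negative difference was that of Fshr, at -0.49. The list mean was highest in PRKO pool 3, at 11.4, and lowest in PRKO pool 4, at 10.8, the pools that were highest and lowest for Prkar2b among PRKO pools. Among controls it was highest in PR+/- pools 2 and 4, which also held the 2 highest control values of Prkar2b. Other values did not match. The list mean of PRKO pool 4, at 10.78, lay under that of every control (10.84 to 11.13), whereas its Prkar2b lay above every control. PRKO pool 2 had a list mean of 11.30, above PRKO pools 1, 4 and 5. Its Prkar2b value of 12.15 lay under PRKO pools 1, 3 and 5 (12.20, 12.35 and 12.16), though all but level with pool 5. Markers of other cells went both ways. All 9 oocyte markers were negative (median log2 difference -0.14), as were 3 of 4 cumulus markers (median -0.14). So were 5 of 6 endothelial (median -0.08) and 6 of 8 leukocyte markers (median -0.04). Of theca and smooth muscle markers, 3 of 5 and 3 of 4 were positive (medians 0.06 and 0.07), as was the 1 erythroid marker measured. Over all genes, 11000 of 19938 were negative. None of these markers passed in limma. At an unadjusted limma p under 0.05 there was 1 in each of the oocyte, cumulus, endothelial and leukocyte lists. The part of these markers in the Prkar2b result was not tested. The genes with the pattern most like that of Prkar2b over the 10 pools, with the genotype means taken out, were Cse1l (r = 0.95), a nuclear export factor, Cpsf4 (r = 0.92), a part of the mRNA 3' end processing complex, and Gabrb2 (r = 0.89), a GABA receptor subunit. Their log2 differences between genotypes were -0.01, 0.02 and 0.55, and none passed (limma adjusted p = 0.983, 0.948 and 0.355).

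Prkar2a, which encodes the more widely expressed type II subunit RII-alpha, had a log2 difference of the other sign. Its log2 values were 7.37, 7.48, 6.99, 7.27 and 7.44 in PRKO pools 1 to 5, and 7.76, 7.69, 7.50, 7.62 and 7.61 in PR+/- pools 1 to 5. Every PRKO pool lay below every control, though PRKO pool 2 and PR+/- pool 3 nearly met. The means were 7.31 ± 0.19 in PRKO and 7.64 ± 0.10 in PR+/- (SD, n = 5 pools each), a 1.26-fold lower reading (log2 difference -0.33, SE 0.09, 95% interval -0.53 to -0.13). The limma adjusted p was 0.0957, and the exact permutation p was again 0.0079, unadjusted. With any 1 pool left out, the adjusted p ran between 0.0812 and 0.203. It passed in 2 of 12 settings other than leaving out 1 pool. The first had the replicate number as a block (limma adjusted p = 0.0469), though the numbers were not taken as pairs. The second, added after seeing the data, had the olfactory receptor mean of each array as a covariate (log2 difference -0.44, limma adjusted p = 0.00327).

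The ratio of Prkar2b to Prkar2a within each array puts the 2 genes together. Set relative to the control mean, its log2 value was 0.77, 0.61, 1.29, 0.70 and 0.65 in PRKO pools 1 to 5, and -0.31, 0.25, -0.19, 0.31 and -0.06 in PR+/- pools 1 to 5. PRKO pool 3 stood highest, having both the highest Prkar2b and the lowest Prkar2a. The PRKO mean was 0.81 ± 0.28 (SD, n = 5 pools). The ratio was formed after both genes had been seen to separate the pools in opposite directions, which fixes that it separates them too, so it is a description with no test and adds no support to either gene.

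**Figure D3:**
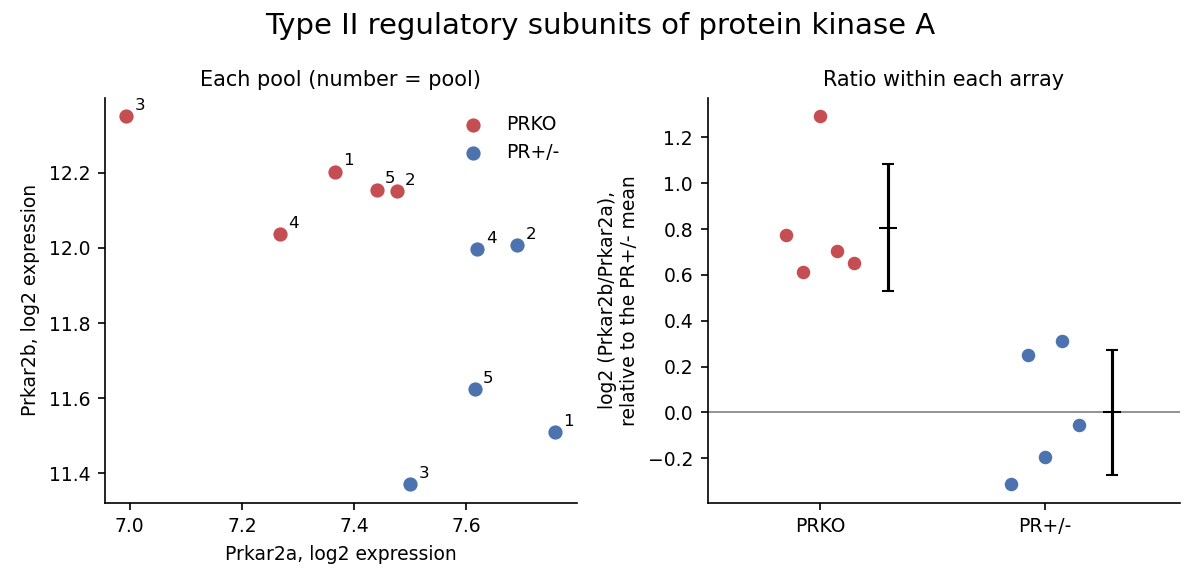
Left, log2 expression of Prkar2b against Prkar2a in each pool, numbered by pool, with PRKO in red and PR+/- in blue. Right, the log2 ratio of the 2 genes within each array relative to the PR+/- mean, with mean and SD (n = 5 pools each); the PRKO pools lie between 0.61 and 1.29 and the PR+/- pools between -0.31 and 0.31.

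**Figure D4:**
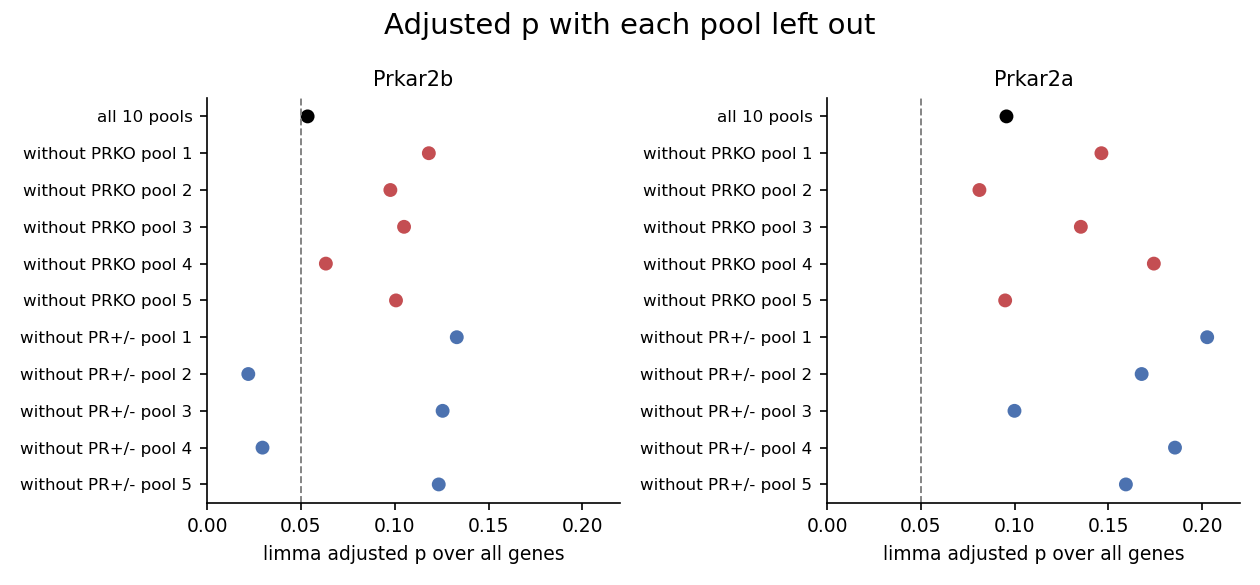
Limma adjusted p over all genes for Prkar2b and Prkar2a with all 10 pools (black) and with each PRKO pool (red) or PR+/- pool (blue) left out in turn; the dashed line is the threshold of 0.05. Among these fits Prkar2b passes only without PR+/- pool 2 or 4, and Prkar2a passes in none of the 10.

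The promoters of both type II subunit genes are shown because these were the genes whose pools did not overlap, with the same motifs in capitals as for Adcyap1. Prkar1a follows because it is the one gene of the 10 with a full cyclic AMP response element in a RefSeq promoter window.

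Prkar2b, chr12:32061228-32061527, minus strand: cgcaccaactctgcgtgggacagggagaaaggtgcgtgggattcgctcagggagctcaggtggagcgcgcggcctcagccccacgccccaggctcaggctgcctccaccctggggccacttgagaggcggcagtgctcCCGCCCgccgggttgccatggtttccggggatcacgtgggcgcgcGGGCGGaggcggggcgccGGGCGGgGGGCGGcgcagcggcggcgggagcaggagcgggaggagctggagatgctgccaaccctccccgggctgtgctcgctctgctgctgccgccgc

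Prkar2a, chr9:108691893-108692192, plus strand: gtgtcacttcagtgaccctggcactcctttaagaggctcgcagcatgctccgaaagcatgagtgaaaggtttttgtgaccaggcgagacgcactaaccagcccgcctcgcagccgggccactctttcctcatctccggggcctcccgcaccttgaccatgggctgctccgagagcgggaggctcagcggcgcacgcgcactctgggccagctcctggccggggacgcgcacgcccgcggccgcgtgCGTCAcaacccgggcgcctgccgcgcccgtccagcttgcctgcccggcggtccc

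Prkar1a, chr11:109650699-109650998, plus strand: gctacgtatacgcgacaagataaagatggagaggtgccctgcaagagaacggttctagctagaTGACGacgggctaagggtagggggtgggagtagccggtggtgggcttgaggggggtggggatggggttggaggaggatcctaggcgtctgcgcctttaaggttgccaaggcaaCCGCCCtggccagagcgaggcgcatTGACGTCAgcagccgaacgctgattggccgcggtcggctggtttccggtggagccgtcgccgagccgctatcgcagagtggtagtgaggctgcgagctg

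The Prkar2b window shown, that of the upstream of its 2 annotated starts, holds 4 GC boxes and no cyclic AMP half-site, and the other holds none of the motifs searched. The Prkar2a window holds 1 half-site, starting at base -4, and no GC box. The Prkar1a window holds the full element TGACGTCA starting at base -49, whose strands each count as a half-site, a further half-site at base -187 and 1 GC box. The palindrome core was found in none of these 3 windows. Over all RefSeq windows of the 10 genes it was found 2 times in another Prkar1a window, at bases -38 and -24 from the most upstream start, and 1 time in a Prkaca window. Prkar1a has 6 annotated starts, and only this window and the one overlapping it hold the full element.

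Prkar1a encodes RI-alpha, the type I subunit that holds catalytic subunits in check in most tissues. It was the steadiest of the 9 genes, at 10.97, 10.92, 10.90, 11.01 and 10.94 in PRKO pools 1 to 5, and 10.89, 10.81, 10.88, 10.90 and 10.89 in PR+/- pools 1 to 5. All 5 PRKO pools lay above the control mean and 4 above the highest control, and PR+/- pool 2 lay apart below the rest. The SD within genotypes was 0.04, and only 0.371% of all genes had a smaller one. The log2 difference was 0.08 (SE 0.06, 95% interval -0.05 to 0.20, limma adjusted p = 0.646), a 1.05-fold higher reading. The 2 tests differed here: the exact permutation p was 0.0159 and the limma p 0.221, both unadjusted, limma having an SE drawn in part from the spread of all genes.

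Prkar1b encodes RI-beta, a type I subunit known mainly from the brain. It read 7.64, 7.47, 7.58, 7.51 and 7.85 in PRKO pools 1 to 5, and 7.71, 7.74, 7.77, 7.75 and 8.08 in PR+/- pools 1 to 5. Of the PRKO pools, 4 lay below every control and pool 5 above all but one of them, and pool 5 was the highest in each genotype. The log2 difference was -0.20 (SE 0.09, 95% interval -0.40 to -0.0014, limma adjusted p = 0.381).

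Prkacb, which encodes the catalytic subunit C-beta and was the one catalytic gene measured, read 9.45, 9.60, 9.75, 9.47 and 9.85 in PRKO pools 1 to 5. PR+/- pools 1 to 5 read 9.46, 9.56, 9.45, 9.59 and 9.60, inside the PRKO range. The log2 difference was 0.09 (SE 0.09, 95% interval -0.10 to 0.27, limma adjusted p = 0.727), and the upper end of the interval is a level 1.21-fold higher in PRKO.

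Around these genes, the rest of the cyclic AMP route was followed in 10 lists of 108 genes, of which 98 were measured. Only 2 of the 98 passed in limma, Nr4a1 as higher and Per1 as lower in PRKO, against 0.752% higher and 1.71% lower among all genes. The median log2 difference of the 98 was -0.01, beside -0.02 over all genes. The luteinizing hormone receptor gene Lhcgr and the stimulatory G protein gene Gnas had no 1-symbol probe set and are not analysed here.

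Both called genes belong to the cyclic AMP responsive list, in which 18 of 20 genes were measured. Nr4a1, an orphan nuclear receptor induced within hours by gonadotropins, read 11.83, 11.60, 11.68, 11.56 and 11.59 in PRKO pools 1 to 5, and 11.37, 11.01, 11.18, 11.34 and 11.32 in PR+/- pools 1 to 5. Every PRKO pool lay above every control. The log2 difference was 0.41 (SE 0.08, limma adjusted p = 0.0168), and the call was lost without PRKO pool 1 (adjusted p = 0.0530). Per1, a clock gene with a cyclic AMP response element that progestins and glucocorticoids also induce, fell by 0.58 on the log2 scale (SE 0.08, limma adjusted p = 0.000446), with values of 8.69 to 8.93 in PRKO pools and 9.20 to 9.51 in PR+/- pools. The list median was -0.01.

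No gene of the other 9 lists passed in limma (14 at an unadjusted p under 0.05, and 14 by exact permutation). Over all 10 lists these unadjusted counts were 18 and 17 of 98 genes, against 13.0% and 12.7% of all genes. Among CREB and its coactivators (12 measured), Ep300, the acetyltransferase p300, came closest, at 9.62 to 9.81 in PRKO pools and 9.93 to 10.06 in PR+/- pools (log2 difference -0.27, SE 0.07, adjusted p = 0.0520). Its pools did not overlap, and with any 1 pool left out its adjusted p ran between 0.0511 and 0.150. Sik1, a salt-inducible kinase that restrains CREB coactivators, had a log2 difference of 0.27 (adjusted p = 0.241). CREB itself, Creb1, had a log2 difference of -0.01.

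Among other class B peptides and receptors (14 measured), Ramp1, an accessory protein of the calcitonin receptor-like receptor, had a log2 difference of -0.52 (SE 0.14, limma adjusted p = 0.0754). The glucagon receptor gene Gcgr, under background in both genotypes, had one of -0.18. Of the other receptors coupled to cyclic AMP (5 measured), the follicle-stimulating hormone receptor gene Fshr ran between 8.18 and 9.81 in PRKO pools and between 9.33 and 9.64 in PR+/- pools. Its log2 difference was -0.49 (SE 0.22, adjusted p = 0.361), with PRKO pool 3 above all controls and the other 4 PRKO pools below them. It passed without PRKO pool 3 (-0.70, adjusted p = 0.0448) and was -0.29 without PRKO pool 4 (adjusted p = 0.532), and Ramp1 passed without PR+/- pool 4 (-0.62, adjusted p = 0.0202). The melanocortin receptor gene Mc2r was under background at 0.14.

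Of the 6 measured G protein alpha subunits, the inhibitory Gnai1 had a log2 difference of 0.21 (limma adjusted p = 0.284) and the olfactory type Gnal, under background, -0.18. Of 10 adenylyl cyclases, which make cyclic AMP, Adcy3 stood at -0.23 and Adcy7 at -0.22 (adjusted p = 0.285 and 0.216). In the branch of cyclic AMP sensing that bypasses protein kinase A (3 measured), the small GTPase gene Rap1a had a log2 difference of -0.38 (SE 0.11, limma adjusted p = 0.103), and passed without PRKO pool 4 (-0.45, adjusted p = 0.0427). Rapgef3, which encodes the cyclic AMP sensor EPAC1, lay at the background level, with means of 5.91 in PRKO and 5.78 in PR+/- pools, the second under it, and no difference is read from it.

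Closest to the kinase itself, Pkia, which encodes a peptide inhibitor of the catalytic subunits, had a log2 difference of 0.24 (SE 0.08, limma adjusted p = 0.194), and Pkib, under background, -0.08. None of 19 measured anchoring proteins passed in limma (1 at an unadjusted p under 0.05). Akap12 stood at -0.20 and Akap14, under background in both genotypes, at -0.19, and the list median was -0.07. Of 7 phosphatase genes, Ppp1cc and Ppp2cb had log2 differences of -0.21 and 0.17 (adjusted p = 0.196 and 0.245), each with pools that did not overlap. For Ppp1cc the genotypes all but met, the highest PRKO pool reading 11.1284 and the lowest control 11.1292. Over all the pathway lists together the pools did not overlap in 6 of 98 genes, against 4.42% of all genes.

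**Figure D5:**
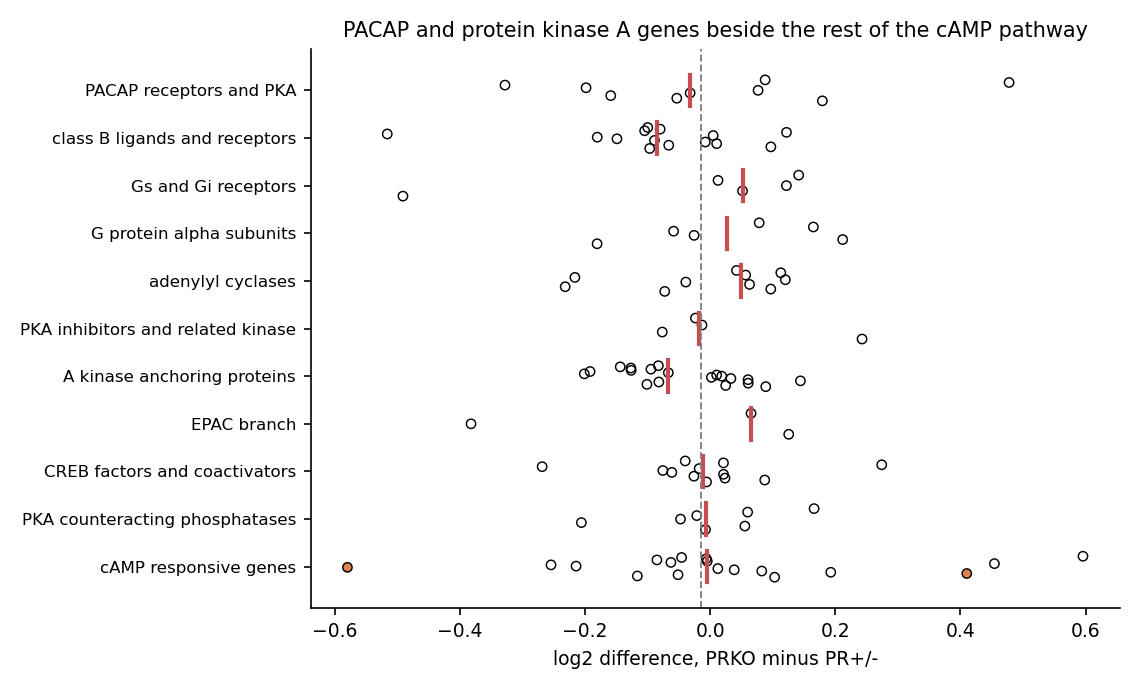
Log2 difference, PRKO minus PR+/-, of each measured gene of the PACAP and protein kinase A set (top) and of 10 lists of the cyclic AMP route, as circles, with the list median as a red bar. The dashed line is the median of all 19938 genes, and filled circles are the 2 genes past the threshold, Per1 on the left and Nr4a1 on the right.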

How the data were processed

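Expression was measured with 1 whole-transcript microarray per pool in 5 PRKO and 5 PR+/- pools of granulosa cells, grouped by the sample titles. The authors deposited log2 expression values per probe set. The submitters' processing notes name Partek, with its steps (background, normalization, probe summaries) not given in the sources used here. Of 35557 probe sets, 21789 carry 1 symbol in the platform annotation, 1621 several and 12147 none. Where a gene had several, the one with the highest mean was used, giving 19938 genes. Symbols were checked by Entrez ID against RefSeq (GRCm38.p6; 21698 matched, 0 updated), and 0 sample columns were left unused.

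The 2 genotypes were compared by lmFit and eBayes of limma 3.58.1 (R 4.3.3), without a block, with Benjamini-Hochberg adjustment over all genes and a threshold of 0.05. All adjusted p for genes come from limma. The exact permutation test of the mean difference was run two-sided over the 10 pools. The fit was run on simulated data with planted differences, drawn independently for each gene and pool. Such data hold no effect shared by a whole array, so that run cannot show how the fit handles one. Arrays have no read depth, so the number of pools and the signal over background limit the precision. The pools were pools of different animals, so p-values cover variation between pools.

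The genes named are the 9 measured members, the genes past the threshold and the 2 with the smallest p in each list, and the 3 genes most like Adcyap1 and most like the member with the smallest p over the pools, Creb1 being named after its values were seen. Members, lists and tests were chosen with earlier results of these data known. Alternatives covered normalization, dim genes, the prior, array weights, probe sets, the threshold, the test and leaving out pools. The sequences are from RefSeq promoter tables (all 10 genes matched by symbol), searched on both strands. Motif searches and plots used Python 3.11.15 with pandas 2.3.3 and matplotlib 3.10.9.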

Additional observations from a re-analysis of the deposited data

Results flagged for a closer look

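Of 58 groups of 5 pools (the 9 genes and the 20 named genes of the cyclic AMP route, in each genotype), 5 held a pool far from the other 4, and chance alone flags about 1 in 20 such groups. Vipr2 read 5.64 in PR+/- pool 3, against 4.97 to 5.16 in the other controls, all under background. Prkar1a read 10.81 in PR+/- pool 2, against 10.88 to 10.90 in the other controls. Prkar1b read 8.08 in PR+/- pool 5, against 7.71 to 7.77 in the other controls. In the PRKO group, pool 4 read 7.09 for Adcy7, against 6.78 to 6.85 in the other PRKO pools, and 5.51 for Akap14, against 5.31 to 5.35. No cause was tested for these values.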

How the results depend on the processing

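Over 197 pairs of 1 of the 9 members with another setting, 191 stayed on the same side of the threshold. The other 6 newly passed it, 4 in Prkar2b and 2 in Prkar2a. Not every pair could move: the exact permutation test has no adjusted p under 0.180. The probe set settings could change the log2 difference of Vipr1 only. The count of members called, 0 with all pools and the settings of the report, became 1 without genes under the 30th percentile of mean expression (Prkar2b, limma adjusted p = 0.0417) and with an intensity trend in the prior (Prkar2b, adjusted p = 0.0349). It became 1 with the replicate number as a block, where Prkar2a passed as lower (log2 difference -0.33, adjusted p = 0.0469) and Prkar2b did not (0.0916). The sample titles number the pools without saying what a number shares, and the numbers were not taken as pairs. Deviations of same-numbered pools correlated at -0.10 to 0.32 over genes. PRKO pools 1 to 3 correlated best with the control of their own number and pools 4 and 5 did not, so these values do not decide whether same-numbered pools belong together. The count of members called also became 1 with the olfactory receptor mean of each array as a covariate, added after seeing the data. There Prkar2a had a log2 difference of -0.44 (limma adjusted p = 0.00327). Leaving out each pool in turn gave 0 to 1 members, 1 to 3 other pathway genes, lowest without PRKO pool 1, and 360 to 488 of all genes called, beside 2 and 491 with all pools. At an adjusted p under 0.01 the calls were 258 over all genes and 1 in the pathway. The exact permutation test called 0 over all genes and 0 in the pathway, the 881 genes whose pools did not overlap having its smallest p of 0.0079, unadjusted, and an adjusted p of 0.180. Without the array of each genotype that correlated least with the rest (PRKO pool 5 and PR+/- pool 3, added after seeing the data), calls were 323 over all genes and 1 in the pathway, Nr4a1 being lost (adjusted p = 0.0698). The pathway count was 4 with the olfactory receptor covariate. In other cases the cause was not tested. Signs changed in 10 of the 197, all in Adcyap1, Adcyap1r1 and Vipr2, which passed in none. Ep300 newly passed under quantile normalization (0.0173) and 4 of the other settings. Vipr2 lay under background throughout, so its signal limits what can be read from it, and it has no value without dim genes.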
